A study of Mus musculus with 14 samples.

Results

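The genes described here encode the integrins, the cell surface receptors of the extracellular matrix, and the laminins, the trimeric proteins that build basement membranes. Members were found by gene symbol among the protein-coding genes of the mm10 annotation: Itga or Itgb followed by a digit or by v, e, d, l, m or x, and Lama, Lamb or Lamc followed by a digit, with Itgb1bp1, Itgb3bp and Itgbl1 left out. The rule found 39 of 21883 genes, of which 27 are integrin subunits and 11 are laminin chains. The remaining gene, Itgb1bp2, has an integrin-like symbol but encodes a muscle chaperone that binds integrin. It had no region of any kind listed within 5 kb in either genotype.

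An integrin is a pair of an alpha and a beta chain, and the pair decides the ligand. Alpha chains are grouped by what they bind: collagen, laminin, proteins with an RGD motif such as fibronectin, or counter-receptors on other cells in the case of leukocyte integrins. Laminins assemble from an alpha, a beta and a gamma chain, and in liver they are prominent around bile ducts and vessels, whereas the sinusoids carry little continuous basement membrane. Integrins connect the matrix to the actin cytoskeleton, a route through which adhesion is known to act on YAP, the transcriptional co-activator that pairs with TEAD factors.

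Liver chromatin was immunoprecipitated for H3K4me2 and H3K4me1, the di- and monomethylated lysine 4 of histone H3 found at promoters and enhancers, and for LSD1, the enzyme that demethylates both. The WT group was wild-type C57BL/6 liver and the YAP group was liver of C57BL/6 mice carrying an inducible YAP transgene. Doxycycline at 50 mg/L in drinking water for 10 days is recorded for every sample, and whether WT mice received it is not stated. The promoter driving the transgene, the cells that express it, and the sex, age and number of mice are not stated there. There were 14 libraries, 2 of them inputs, and 6 region lists, so that every antibody has a WT and a YAP list. A list stands for both replicates of its group, so no spread between replicates can be computed, no test is given and the depth is unknown. All comparisons below are between 2 lists. Of 8 hepatocyte marker genes, the WT H3K4me2 list covered 8 and the YAP list 7. Chromatin was from bulk liver, so more cells of a type and more of the mark per cell cannot be told apart.

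H3K4me2 was measured as the bases of listed regions in each gene and 5 kb on both sides. Of the 39 members, 31 had covered bases in at least 1 genotype and 8 had none in either: Itga11, Itgad, Itgam, Itgb2l, Itgb6, Lamb1, Lamc3 and Itgb1bp2. On a log2 scale after adding 500 bases to both values, a difference of 1.5-fold or more was counted as a call. It was met upwards in YAP by 6 members (among them Itga4, Itgal, Itgb2, Itgb8 and Lama2) and downwards by 3 (Itgb3, Lama1 and Lama4). Over all 14912 genes with covered bases, 7.71% were called upwards and 7.25% downwards. Of the 6 upward members, 5 had no base listed in WT and entered the count only through YAP, so their direction was fixed by the filter. Among the 24 members with bases in both lists, 1 was called upwards and 2 downwards, where 5% and 5.99% of the 14032 such genes were called. With so few members these counts do not set the family apart from other genes. Of the 101 WT regions at members, 82 overlapped a YAP region, and of the 103 YAP regions, 76 overlapped a WT region.

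Most differences among the other members were small. Of the 24 members with bases in both lists, 16 had more in YAP and 8 had fewer, with a median log2 ratio of 0.10. The 16 include Itgb4, with 3753 bp in WT and 3754 bp in YAP, and Itgax, whose region lay outside the gene. Over all 14032 genes with bases in both lists, 5522 had more in YAP and the median was -0.07. Integrins with bases in both lists had more in YAP at 12 of 18 genes, and laminins at 4 of 6. The member closest to a call without reaching it was Lamb3, with a log2 ratio of -0.56, and the called member closest to the limit was Itgb8, with 0.67. With the higher-scoring 50% of each list, Itgb5 and Itga1 became calls, at 0.87 and -0.65, and Itga4, Itgb2, Itgb3, Lama1 and Lama4 had no covered base in either list.

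**Figure D1:**
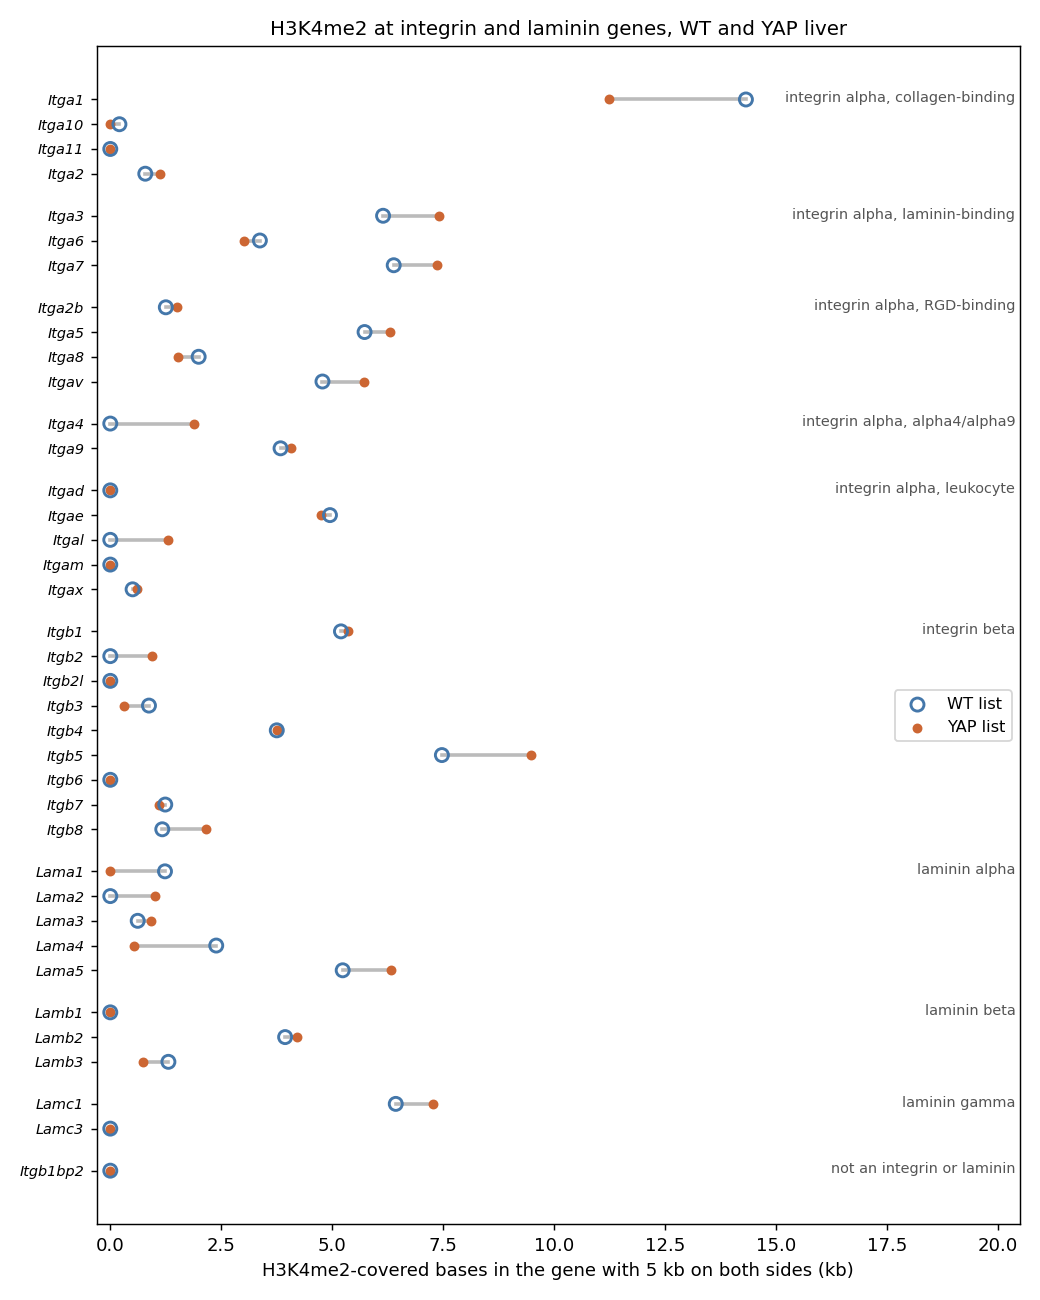
H3K4me2-covered bases in kb (x axis) for integrin and laminin genes (rows, grouped by subunit class), with the WT list as open circles and the YAP list as filled points. Itga1 stands to the right of all others in both lists, and Itga4, Itgal, Itgb2 and Lama2 have a YAP point above 0 beside a WT circle at 0.

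Among the alpha chains that bind collagen, Itga1 had the most covered bases of all members in both lists. Its covered bases were 14.3 kb in WT and 11.2 kb in YAP, a log2 ratio of -0.34. Per length, this was 9.31% of the gene and its flanks in WT and 7.30% in YAP. Part of it, 3486 bp in WT and 3431 bp in YAP, lay within 1 kb of Pelo, a gene inside Itga1. The WT region over the start of Itga1 was 6006 bp long (chromosome 13, 115096493 to 115102498). In YAP the region there was 3610 bp (115098875 to 115102484), and 3 shorter ones of 304, 403 and 467 bp covered some of the remainder. Both regions ended at nearly the same base upstream of the start, and the stretch inside the gene was the one with gaps in YAP. Itga2, the platelet and epithelial collagen receptor chain, had 0.789 kb in WT and 1.12 kb in YAP, Itga10 had 0.206 kb in WT and none listed in YAP, and Itga11, a fibroblast chain, had none in either list.

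The alpha chains that bind laminin had H3K4me2 within 1 kb of a gene boundary in both genotypes. Itga3 had 6.15 kb in WT and 7.41 kb in YAP, Itga6 had 3.37 and 3.01 kb, and Itga7 had 6.39 and 7.37 kb. None of these differences reached 1.5-fold. Per length, Itga7 was among the most covered members, at 18.3% of the gene and flanks in WT and 21.1% in YAP. Neighbours held part of this: 2664 bp in WT and 2720 bp in YAP lay within 1 kb of Pdk2 at Itga3, and 3870 and 4280 bp within 1 kb of Mettl7b at Itga7. The longest region at Itga3 was 2948 bp in WT and 4397 bp in YAP, and with regions less than 500 bp apart joined it was 3572 and 5007 bp.

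Of the RGD-binding chains, Itgav had 4.78 kb in WT and 5.72 kb in YAP, and Itga5, the fibronectin receptor chain, had 5.73 and 6.30 kb. Itga8 had 1.99 and 1.52 kb, and Itga2b, the platelet chain, had 1252 and 1499 bp. None of these reached 1.5-fold, with a median log2 ratio of 0.16.

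Of the beta chains, Itgb1, the partner of the collagen, laminin and most RGD-binding alpha chains, was almost equal, with 5.20 kb in WT and 5.35 kb in YAP. Itgb5, which pairs with the Itgav product, had the most covered bases of the beta genes, with 7475 bp in WT and 9485 bp in YAP. Itgb8, another partner of the Itgav product, known for activating latent TGF-beta, went from 1.17 to 2.17 kb, a log2 ratio of 0.67. In WT its start had 3 regions of 240, 618 and 314 bp, and in YAP a region of 2166 bp (chromosome 12, 119237288 to 119239453) spanned all of them and reached further upstream. Without the flanks the log2 ratio of Itgb8 was 0.27. Itgb3, the platelet and vitronectin receptor chain, went the other way, from 0.872 to 0.313 kb. Itgb4, the hemidesmosome chain, had 3.75 kb in both lists, of which 2255 bp in WT and 2163 bp in YAP lay near Galk1. Itgb6, an epithelial chain, and Itgb2l had none in either list.

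Of the 5 members with H3K4me2 in YAP alone, 3 encode integrins of leukocytes. Itga4, whose product recognises the adhesion molecule of the Vcam1 gene and pairs with the Itgb1 or Itgb7 product, had 1.89 kb in YAP where WT had none. The YAP bases lay in 3 regions of 965, 276 and 652 bp, centred 0.80, 1.98 and 2.73 kb downstream of the start. Itgal and Itgb2, whose products together form the lymphocyte receptor LFA-1, had none in WT and 1.29 and 0.93 kb in YAP. The YAP region at Itgb2 was centred 1.26 kb inside the lower-coordinate gene boundary, and the larger of 2 at Itgal 2.10 kb inside it. The authors' scores of these YAP regions were 57 to 70 at Itga4, 52 and 98 at Itgal and 58 at Itgb2. In the same list the region of 5450 bp at Itgb5 had a score of 323. The WT list had H3K4me2 7.42 kb from Itgal and 7.005 kb from Itgb2, and with flanks of 20 kb their log2 ratios were -0.12 and -0.17. The myeloid chain genes Itgam and Itgad had none in either list. Itgax had 0.503 and 0.605 kb, in a region 4.48 and 4.33 kb from the gene. Itgb7 was near equal, with 1.24 kb in WT and 1.10 kb in YAP. Itgae appeared marked, with 4.95 and 4.75 kb, but 4176 and 4019 bp of this lay within 1 kb of Haspin, a gene inside it. Itga9 had 3.84 and 4.07 kb at its lower-coordinate boundary.

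Leukocyte markers were also covered more in YAP. Of 8 leukocyte marker genes, 7 had covered bases, with 7.39 kb in WT and 18.4 kb in YAP when summed. Of these 7, 4 had none in WT, so that their direction was fixed by the filter. The 3 with bases in both lists all had more in YAP, and 1 of them, the myeloid factor gene Spi1, was past 1.5-fold, with 748 and 3375 bp. The others were Cd79a, near equal with 2235 and 2396 bp, and Cd68, with 4404 and 6584 bp. Both Cd68 values exceed the 1.96 kb of the gene itself, so bases in its flanks are included. Ptprc, which marks all leukocytes, had none listed in WT and 2.70 kb in YAP, and the macrophage genes Adgre1, Csf1r and Clec4f had none in WT and 1.36, 0.992 and 1.02 kb in YAP. The T-cell gene Cd3e had none in either list. Past 1.5-fold were 5 of the 7, and 1 when only the higher-scoring 50% of each list was used. Over all genes with covered bases 7.71% were past it upwards, and 5% of those with bases in both lists. The part of leukocyte number in the H3K4me2 of Itga4, Itgal and Itgb2 was not tested.

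Laminin alpha genes differed in opposite directions. Lama4, a chain of vessel basement membranes, went from 2.39 kb in WT to 0.542 kb in YAP. In WT it had 4 regions of 543, 218, 1257 and 370 bp over its first kilobases (chromosome 10, 38965681 to 38969234), and in YAP a region of 542 bp overlapped the last 2. Lama1, an early developmental chain, had 1.23 kb in WT in regions of 498 and 735 bp at its lower-coordinate boundary and none listed in YAP, where the nearest H3K4me2 region was 179.8 kb away. The authors' scores of these WT regions were 39 to 79 at Lama4 and 39 to 51 at Lama1, compared with 367 for the region over the start of Itga1 in the same list. Lama2, the muscle and nerve chain, had none in WT and 1.02 kb in YAP, in regions of 275 and 740 bp that lay far from its start in a gene of 635.9 kb. Lama5, the main alpha chain of adult epithelial and vascular basement membranes, had 5.24 and 6.33 kb, including 2184 and 1663 bp within 1 kb of Adrm1. Lama3 had 0.618 and 0.929 kb.

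Markers of endothelial and stellate cells, which line or surround vessels, are given beside Lama4. Of 8 endothelial marker genes, 7 had covered bases, 5 with more in YAP and 2 with fewer, and the sum was 5.45 kb in WT and 7.45 kb in YAP. Stab2 went from 2.16 to 4.71 kb, Kdr had 1506 and 1533 bp, and Cdh5, Pecam1 and Clec4g had none in WT and 798, 220 and 184 bp in YAP. Tek went from 1.48 kb to none listed and Emcn from 0.308 kb to none, and Lyve1 had none in either list. Of 8 stellate marker genes, 4 had covered bases, 2 with more in YAP and 2 with fewer. Their sum was 8.08 kb in WT and 2.36 kb in YAP. The 2 with fewer were Reln, at 6.38 and 1.52 kb, and Hand2, at 1297 bp and none listed. Lrat had 406 and 629 bp, Col1a1 had none in WT and 212 bp in YAP, and Des, Pdgfrb, Col1a2 and Rgs5 had none in either list. The part of endothelial and stellate cells in the value of Lama4 was not tested.

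Among the beta and gamma chains of laminin described here, none reached 1.5-fold. Lamb2 had 3.94 and 4.21 kb in a short gene of 10.7 kb, of which 2514 and 2301 bp lay within 1 kb of Usp19. Lamb1 had none in either list, and the nearest region was 19.3 kb away in WT and 19.1 kb in YAP. Lamb3 had 1.31 kb in WT and 0.730 kb in YAP. Lamc1, the gamma chain of most laminins, had 6435 and 7267 bp. Lamc3 had none in either list. Both lists held regions at all genes of the trimer of Lama5, Lamb2 and Lamc1.

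Annotated starts and promoter sequence were at hand for 24 of the 39 members (RefSeq, GRCm38.p6, which has mm10 coordinates), with 27 starts among them. H3K4me2 lay within 1 kb of the start in both genotypes at 11 genes, in YAP only at Itga4 and in WT only at Itgb7. The 250 bases before the 11 starts with H3K4me2 in both lists held 3 to 22 CpG dinucleotides, with a median of 18. The 14 starts without H3K4me2 within 1 kb held 0 to 14, with a median of 4, and the median over 21262 starts of protein-coding genes was 10. These were groups of starts, not of genes. The 14 included a start of Itga3, which had H3K4me2 in both lists at another start. They also included the Itga9 start (chromosome 9, 118711692), which lay inside the gene, far from the H3K4me2 at its lower-coordinate boundary. The groups of starts overlapped in CpG number, since Lamb2 had 3 CpG and H3K4me2, and Lamb1 had 14 and none. Methylation of these CpG sites was not measured.

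**Figure D2:**
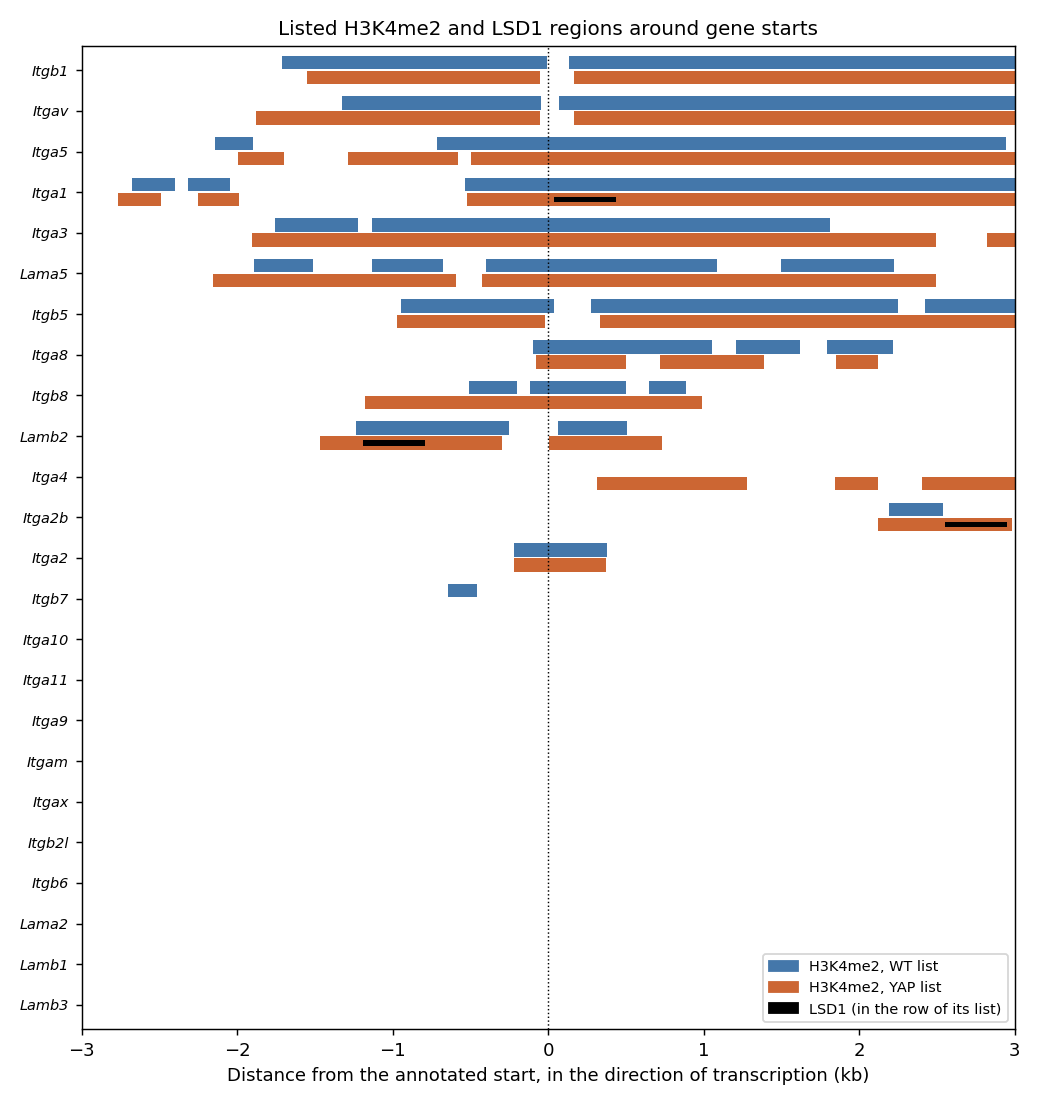
Listed H3K4me2 regions (WT above, YAP below in each row) and LSD1 regions (black) within 3 kb of the annotated start of 24 members, on an axis of distance in kb along the direction of transcription (first table start where a gene has 2). Itga4 has YAP regions only, Itgb8 has 1 long YAP region over 3 WT regions, and the lowest 10 rows are empty in both lists. The annotated start of Itga9 lies inside the gene, far from its listed H3K4me2.

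The 250 bases before 4 starts are shown as examples of a start with H3K4me2 in both lists, in YAP only and in neither, with each CpG in capitals. Itgb5 (chr16:33829415-33829664, plus strand, 18 CpG) had H3K4me2 on these bases in both genotypes. Itga4 (chr2:79255176-79255425, plus strand, 6 CpG) had none on them in either list, and its YAP regions began downstream of the start. Itgam (chr7:128062390-128062639, plus strand, 6 CpG) and Lamb1 (chr12:31265043-31265292, plus strand, 14 CpG) had none within 1 kb in either list.
Itgb5: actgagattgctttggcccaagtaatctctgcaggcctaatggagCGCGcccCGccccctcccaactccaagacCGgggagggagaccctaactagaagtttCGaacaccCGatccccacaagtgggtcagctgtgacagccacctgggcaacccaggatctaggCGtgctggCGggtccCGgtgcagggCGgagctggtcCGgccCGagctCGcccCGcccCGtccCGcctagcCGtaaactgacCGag
Itga4: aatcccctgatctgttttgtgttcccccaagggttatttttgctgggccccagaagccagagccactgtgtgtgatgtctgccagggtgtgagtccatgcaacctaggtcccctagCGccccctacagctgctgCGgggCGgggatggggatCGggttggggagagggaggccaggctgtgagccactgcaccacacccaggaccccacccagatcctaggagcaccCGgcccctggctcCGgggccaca
Itgam: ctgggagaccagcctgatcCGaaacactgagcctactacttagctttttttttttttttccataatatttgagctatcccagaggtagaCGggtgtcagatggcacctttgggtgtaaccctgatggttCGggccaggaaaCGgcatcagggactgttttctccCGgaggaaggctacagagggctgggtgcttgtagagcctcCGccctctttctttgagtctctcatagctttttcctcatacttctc
Lamb1: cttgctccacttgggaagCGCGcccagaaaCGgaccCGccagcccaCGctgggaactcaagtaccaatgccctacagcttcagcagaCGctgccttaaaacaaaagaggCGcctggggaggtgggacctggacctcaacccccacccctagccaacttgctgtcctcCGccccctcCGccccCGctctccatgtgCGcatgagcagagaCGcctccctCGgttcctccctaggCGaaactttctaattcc
Itga4 and Itgam had the same number of CpG, and H3K4me2 was listed within 1 kb of the start in YAP at the first and in neither genotype at the second.

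The promoter of Itgb8 (chr12:119238277-119238526, minus strand, 12 CpG) is shown because the WT list left a stretch of 79 bases uncovered there that the YAP list covered. These 79 bases are in capitals, and the sequence ends at the base before the start.
Itgb8: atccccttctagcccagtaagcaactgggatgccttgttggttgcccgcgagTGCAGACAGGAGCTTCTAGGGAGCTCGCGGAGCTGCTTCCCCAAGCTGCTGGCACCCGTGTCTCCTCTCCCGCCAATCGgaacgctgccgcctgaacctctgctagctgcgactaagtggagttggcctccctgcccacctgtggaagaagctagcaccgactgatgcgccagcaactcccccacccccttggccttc

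The core letters of the TEAD motif, GGAATG on either strand, were found in the 250 bases before 3 of the 27 starts, at Itga10, Itgb1 and Lamb3, and before 11.7% of all 21262 starts. The AP-1 letters TGANTCA were found before 1 of the 27, at Itgax, and before 6.13% of all. None of the genes with a TEAD match was among the members called in H3K4me2. These are matches of letters, searched only in the 250 bases.

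LSD1 was listed at more members in YAP than in WT, and the YAP list was longer, with 3353 regions against 1718. It lay in or within 5 kb of 5 members in YAP only (Itga1, Itga2b, Itgae, Lama2 and Lamb2), of 1 in both (Itgb5) and of none in WT only. Over all genes, 8.08% had LSD1 in YAP only, 3.05% in both and 2.85% in WT only. Members are long, with a median of 61.8 kb against 17.2 kb over all genes. Per Mb of gene and flanks the YAP list had 2.0 LSD1 regions at members and 2.2 at all genes, and the WT list had 0.256 and 1.11. With the YAP list shortened by score to the length of the WT list, 3 members had LSD1 in YAP only. The WT value rests on 1 region and the YAP value on 8.

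Of the 8 YAP regions, 6 lay on H3K4me2 of the YAP list, compared with 64.6% of all 3353 LSD1 regions of that list. At Itga1 the LSD1 region (chromosome 13, 115101526 to 115101925, authors' score 833) was centred 0.24 kb downstream of the start, inside the H3K4me2 region of both genotypes. At Lamb2 it was centred 0.99 kb upstream (chromosome 9, 108478674 to 108479073, score 589), also on H3K4me2 in both genotypes. The region at Itga2b, 2.75 kb downstream of the start (score 647), lay on H3K4me2 in YAP only, where the region was 863 bp long, and just missed the WT region of 348 bp. The region counted for Itgae lay at Haspin. At Lama2 it lay 477 kb downstream of the start (score 1000), 5.46 kb from the nearest H3K4me2 of the YAP list. Counted over the gene and its flanks, H3K4me2 bases in YAP were fewer at Itga1 and slightly more at Lamb2 and Itga2b. These are the members with LSD1 near the start in YAP only. At Lamb2, 2514 bp in WT and 2301 bp in YAP of that count lay within 1 kb of Usp19. Within 1 kb of the Lamb2 start, 1190 bp were covered in WT and 1438 bp in YAP. At Itga1 both lists covered the whole stretch from 115098875 to 115102484, which holds the LSD1 region. The lower Itga1 count in YAP thus came from bases outside that stretch. At Itga2b the WT count included regions of 271 and 292 bp, listed in WT only, that lay 15.9 and 14.9 kb downstream of the start.

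Itgb5 was the member with LSD1 in both lists and with the most LSD1 and H3K4me1 regions in YAP. In YAP, LSD1 regions were centred 7.53, 63.2 and 118 kb downstream of its start (chromosome 16, 33837000 to 33837399, 33892616 to 33893015 and 33947692 to 33948091), with authors' scores of 958, 1000 and 1000. The WT region was centred 62.5 kb downstream (33891967 to 33892362, score 554). It did not overlap the YAP region next to it and was separated from it by 253 bp, and both lay on intragenic H3K4me2 of both lists. The 8 YAP LSD1 regions at members were each 400 bp wide and the WT region 396 bp. The gap therefore depends on these near uniform widths. The first YAP region lay on an H3K4me2 region of 1178 bp that was listed in YAP only, and the third lay 15.7 kb from any listed H3K4me2. The H3K4me2 region behind the start was 5450 bp long in YAP. In WT the same stretch held regions of 1976, 1085 and 1579 bp with gaps of 173 and 103 bp. With regions less than 500 bp apart joined, the longest stretch was 6139 bp in WT and 7166 bp in YAP, so part of that difference in length was a difference in gaps.

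**Figure D3:**
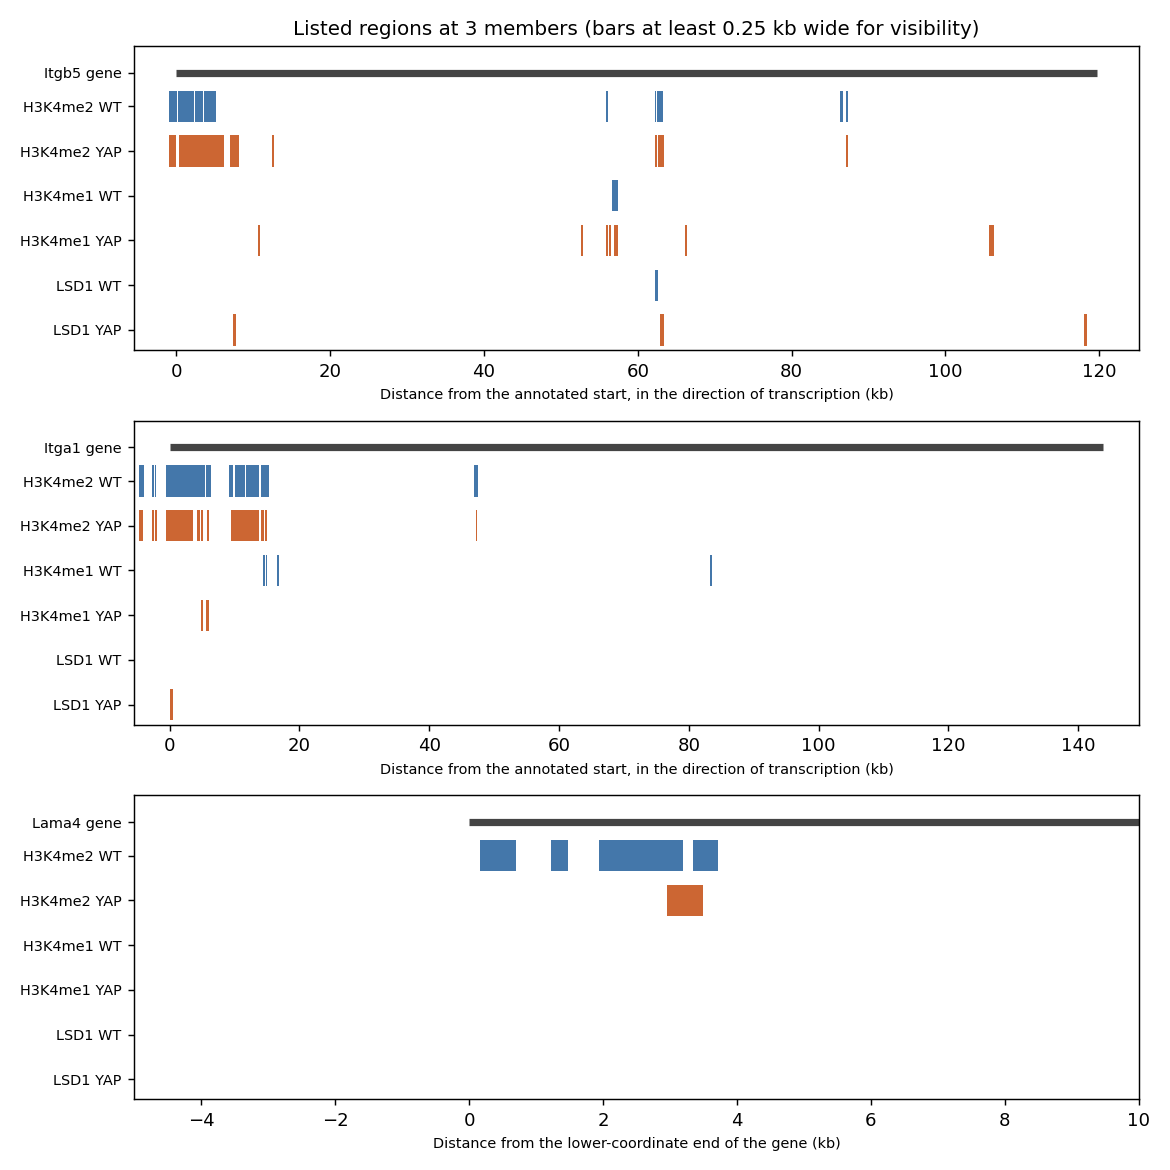
Listed regions along Itgb5, Itga1 and the first part of Lama4, with distance in kb on the x axis (bars at least 0.25 kb wide), 1 row for each mark and genotype (WT blue, YAP orange) and the gene as a dark bar. Itgb5 has LSD1 in 3 places in YAP and 1 in WT, Itga1 has LSD1 at its start in YAP only, and Lama4 has 4 H3K4me2 regions in WT and 1 in YAP.

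H3K4me1 regions were found at 7 members in YAP and at 3 in WT. The 3 in WT (Itga1, Itgb1 and Itgb5) were among the 7. Counted as for H3K4me2, 3 members were called upwards in YAP (Itga5, Itgb5 and Lamc1) and 1 downwards (Itgb1), where 34% and 23% of the 3168 genes with H3K4me1 were called. The lists of this mark thus differ at a large share of all genes, and the members' counts say little beside it. Itgb5 went from 1 region of 787 bp to 7 regions summing to 2.57 kb, 6 of them without a WT counterpart. Itga5 and Lamc1 had none in WT and 0.702 and 0.260 kb in YAP, and could only be called upwards. With the higher-scoring 50% of each list Itga5, with a log2 ratio of 0.55, was no longer a call, and Lamc1 had no covered base. Itgb1 had 1126 bp in 4 regions in WT and 402 bp in 2 other regions in YAP, and Itga1 had 1.06 and 0.566 kb. At neither gene did a WT region overlap a YAP region. Of the 9 WT H3K4me1 regions at members, 1 overlapped a YAP region, and of the 16 YAP regions, 1 overlapped a WT region. The 2 YAP regions at Itga1 were centred 5.85 and 4.94 kb downstream of the start, both on H3K4me2 of both genotypes. With the higher-scoring 50% of each list the log2 ratio of Itga1 was 0.78 in place of -0.55. Itgav and Itga2 had 0.236 and 0.192 kb in YAP and none in WT. H3K4me1 regions were listed on no sex chromosome, so Itgb1bp2, on the X chromosome, could not have had any.

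Other genes of adhesion were read from lists that were chosen with earlier results of these data known. Of 20 basement membrane and integrin ligand genes, 19 had H3K4me2, all of them in both lists, and 4 were called upwards and 0 downwards, where 5% and 5.99% of all genes with bases in both lists were called. The list had a median log2 ratio of 0.13 compared with -0.07 over all genes with bases in both lists. The 4 were Spp1, which encodes the integrin ligand osteopontin (0.619 to 3.75 kb), Nid2 (3.17 to 7.29 kb) and Nid1 (302 to 1095 bp), the nidogens that link laminin to collagen IV, and Thbs1, which encodes thrombospondin (1387 to 2895 bp). Nid1, Icam1 and Vtn had LSD1 in YAP only, and Fn1, which encodes fibronectin, in WT only. Fn1 had 12.5 and 8.31 kb of H3K4me2, a log2 ratio of -0.57. The collagen IV genes Col4a1 and Col4a2 had 4.94 and 4.45 kb in WT and 4.36 and 3.08 kb in YAP. Col4a5 and Col4a6 lie within 5 kb of each other and had equal values, 1373 bp in WT and 1177 bp in YAP. The 19 genes are therefore not all separate loci. Spp1 is also counted among the bile duct markers. Of 20 adaptor and kinase genes that act behind integrins, 19 had H3K4me2 and only Pxn, which encodes paxillin, was called, from 17.0 to 26.2 kb, with a median of -0.04 for the list. LSD1 was listed at 8 of them, where 3.05% of all genes had it in both genotypes and 8.08% in YAP only. The 8 were 4 in both genotypes (Bcar1, Fermt2, Parva and Tns3) and 4 in YAP only (Lims2, Tln2, Tns1 and Zyx). Genes of this list are long, with a median of 67.8 kb against 17.2 kb over all genes. LSD1 per Mb was not computed for them.

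**Figure D4:**
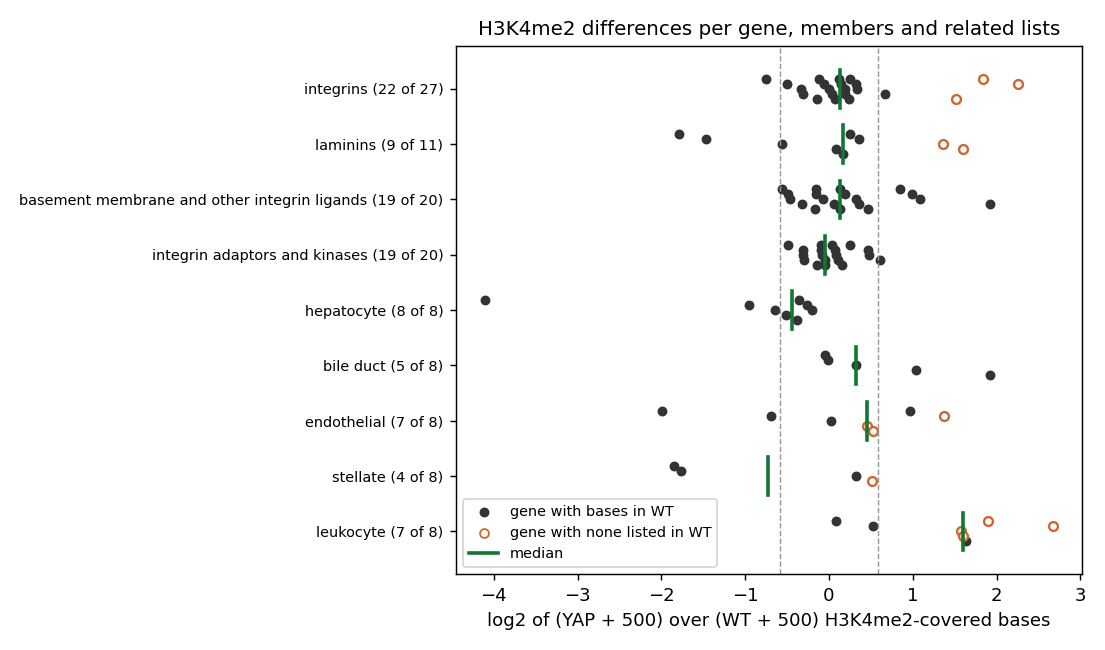
Difference in H3K4me2-covered bases per gene (x axis, log2 ratio with YAP in the numerator and 500 bases added) for integrins, laminins and related lists (rows, with the number of genes that had covered bases of all genes in the list). Dashed lines mark 1.5-fold, green bars medians, and open points genes with none listed in WT, which include all integrins above 1 on this axis.

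Markers of other liver cells stood as follows. All 8 hepatocyte marker genes had fewer covered bases in YAP (82.2 kb in WT and 50.7 kb in YAP in sum), with 3 of them past 1.5-fold. Bile duct marker genes had 13.4 kb in WT and 19.4 kb in YAP, with Spp1 and Prom1 past 1.5-fold and the defining keratin genes Krt7 and Krt19 at none in either list. Over all genes with covered bases, 7.25% were past 1.5-fold downwards and 7.71% upwards. The part of bile duct cells in the H3K4me2 of Itgb8 was not tested.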

How the data were processed

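Each of 3 antibodies was used on 2 replicates per genotype. The submitters' processing notes name mm10 as build and list deepTools 3.3.0, bedtools 2.26.0, Picard 1.126, SAMtools 1.7, BWA and Trimmomatic 0.39. How regions were called, at which threshold and with which inputs is not given in the sources used here. A region list holds both replicates, per the labels. Each list carries a score and a signal per region, deposited by the authors, whose definitions are not stated. The score was used only to rank regions within a list and to describe single regions. The −log10 p and −log10 q-values deposited by the authors for the histone marks were not used.

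Overlapping regions of a list were merged and intersected with RefSeq genes (GRCm38.p6) extended by 5 kb, using Python 3.11.15 with numpy 2.4.6 and pandas 2.3.3. An overlap needed 1 bp. Coverage was checked against bedtools 2.31.1 on simulated regions, where 400 of 400 windows were equal. All comparisons were descriptions without a test. Named genes were members past 1.5-fold in H3K4me2 or H3K4me1 or with LSD1, the 3 with most H3K4me2 in WT, examples of each class, and, of each related list, up to 6 per direction past 1.5-fold or with LSD1. Col4a1, Col4a2, Col4a5, Col4a6, single marker genes and neighbouring genes were added after their values were seen. Values of 1 member are not reported here. The members and lists were chosen with earlier results of these data known. Alternatives changed the flank, the bases added, the list length, the score limit, the scaling, the filter, the fold, the overlap and the membership.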

Additional observations from a re-analysis of the deposited data

How the results depend on the processing

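The median H3K4me2 log2 ratio over members moved by less than 0.1 under all alternatives run for it. Members called upwards, 6 as reported, were 7 with the higher-scoring 50% of each list, with other genes among them, 3 with 2000 bases added and 1 among genes with a mean of at least 1000 covered bases. Members called downwards, 3 as reported, were 5 with 100 bases added and 1 with that filter. Itgal and Itgb2 turned to -0.12 and -0.17 with flanks of 20 kb. In H3K4me1, adding 100 bases gave 5 members upwards and 2 downwards, and the higher-scoring 50% of each list turned Itga1 to 0.78. LSD1 with flanks of 50 kb lay at 4 members in both lists, at 9 in the YAP list alone and at 1 in the WT list alone. With equal list lengths it lay at 3 in YAP only, and with the higher-scoring 50% at 0 in both. Adaptor genes called upwards, 1 as reported, were 3 without flanks, 2 with the higher-scoring 50%, and 0 with 2000 bases added, with flanks of 20 kb or at 2-fold. Ligand genes called upwards were 2 with 2000 bases added and 2 at 2-fold. Leukocyte genes called upwards were 1 with the higher-scoring 50% and 2 with the filter, and hepatocyte genes called downwards were 5 with the higher-scoring 50% and 1 at 2-fold. The cause was not tested. Joining regions less than 500 bp apart was chosen after seeing the data. No paired analysis was possible because each list holds both replicates, and for the same reason no replicate could be left out. Without counts, depth limits cannot be set: a gene listed with no region may carry a mark below the authors' threshold.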

Other observations

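H3K4me1 was listed at 9 of 20 adaptor and kinase genes that act behind integrins, with 2 past 1.5-fold upwards and 0 downwards, where 34% and 23% of all genes with H3K4me1 were past it. Both had none in WT and could only be counted upwards. Pxn, which encodes the adhesion scaffold paxillin, had none in WT and 1918 bp in YAP, and Lims1, which encodes a partner of integrin-linked kinase, had none in WT and 1482 bp in YAP. Fermt2, which encodes a kindlin that binds integrin tails, had the most in both lists, with 5079 bp in WT and 3381 bp in YAP. Of the 20 ligand genes, 8 had H3K4me1, with 5 past 1.5-fold upwards and 0 downwards, beside the same 34% and 23%. Of these 8, 4 had none in WT and could only go up, and 2 had none in YAP. Dag1, which encodes the laminin receptor dystroglycan, had 467 bp in WT and 1098 bp in YAP, and Nid1 had none in WT and 520 bp in YAP.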
